A study of Mus musculus with 7 samples.

Results

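The genes of the glutamate receptors and glutamate transporters were followed in mouse small cell lung cancer. They were taken by name from the gene tables: 31 of the 56941 listed genes, made up of 4 AMPA receptor subunits (Gria), 5 kainate receptor subunits (Grik), 7 NMDA receptor subunits (Grin), the delta receptor Grid1, 7 metabotropic receptors (Grm) and 7 transporters (Slc1a and Slc17a). Each symbol was found once, and each was matched to a gene model on the GRCm39 assembly.

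Single-nucleus RNA sequencing had been performed on fresh-frozen endpoint lung tumors of 4 male mice. RP1 and RP2 carried conditional Rb1 and Trp53 alleles (Rb1 fl/fl, Trp53 fl/fl), and RPC1 and RPC2 carried these together with Casp8 alleles, which the labels write as Casp8-/- and the methods of the study describe as conditional. All 4 animals had inhaled an adenovirus with Cre recombinase under the CMV promoter as young adults, and since that promoter works in many cell types, deletion was not tied to one lung cell of origin. The nuclei of the 4 animals were barcoded together and sequenced in 7 libraries that each hold all animals, so the animal is the replicate, with n = 2 per genotype, and RP and RPC stand for what the animals are labelled. Such p-values describe the spread between these 4 animals, and an exact permutation test of 2 against 2 cannot go below p = 0.333.

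Glutamate is the main excitatory transmitter of the brain. AMPA, kainate and NMDA receptors are ion channels built of 4 subunits, whereas metabotropic receptors act on G proteins: Grm5 belongs to the group that couples to phospholipase C, and the other members measured here belong to the groups that restrain adenylyl cyclase. Transporters of the Slc1a family clear glutamate from the outside of the cell, and those of the Slc17a family load it into vesicles. Pulmonary neuroendocrine cells, a cell of origin of this cancer, share synaptic and secretory genes with neurons.

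After filtering, 38254 of 38353 nuclei were kept, and the deposited matrices held 32299909 and 35420582 transcripts in the RP animals and 72446861 and 57515082 in the RPC animals. The ribosomal transcript Rn18s-rs5 took 9.99% and 8.49% of the transcripts in the RP animals against 3.09% and 5.35% in the RPC animals, and whether this had a part in any difference named here was not tested. No nuclear barcode was shared between animals. Clusters were formed without the 31 genes. The 32030 nuclei in clusters with neuroendocrine markers and no score above 0.5 for another cell type were taken as tumor-like. Casp8 lay at 59.1 and 61.1 CPM (its transcripts relative to the total of the animal, on the usual CPM scale) in the tumor-like nuclei of RP1 and RP2 and at 89.0 and 66.4 in RPC1 and RPC2 (log2 difference 0.37 ± 0.19 (SE), edgeR adjusted p = 0.402). The counts cover the whole gene and not the deleted part alone, so they do not check the label.

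In the tumor-like nuclei, 16 of the 31 genes reached 10 CPM in at least 1 animal, all of them receptors. The other 15 stayed under 10 CPM in each animal, among them each of the 7 transporters. CPM values per animal in the tumor-like nuclei are scaled by the trimmed mean of M values (TMM) unless stated, and a pair of values for a genotype is in the order of the animal numbers. Across the 16, the highest animal lay a median of 5.01 times above the lowest. For 8 of the 16 the difference was over 5-fold, against 3.72% of the 10369 genes that reached 10 CPM in an animal. The plot of the levels by animal shows both kinds of member, with Grik5, Grin1 and Grin2d close together in all animals and Gria1, Grik2 and Grm5 far apart.

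**Figure D1:**
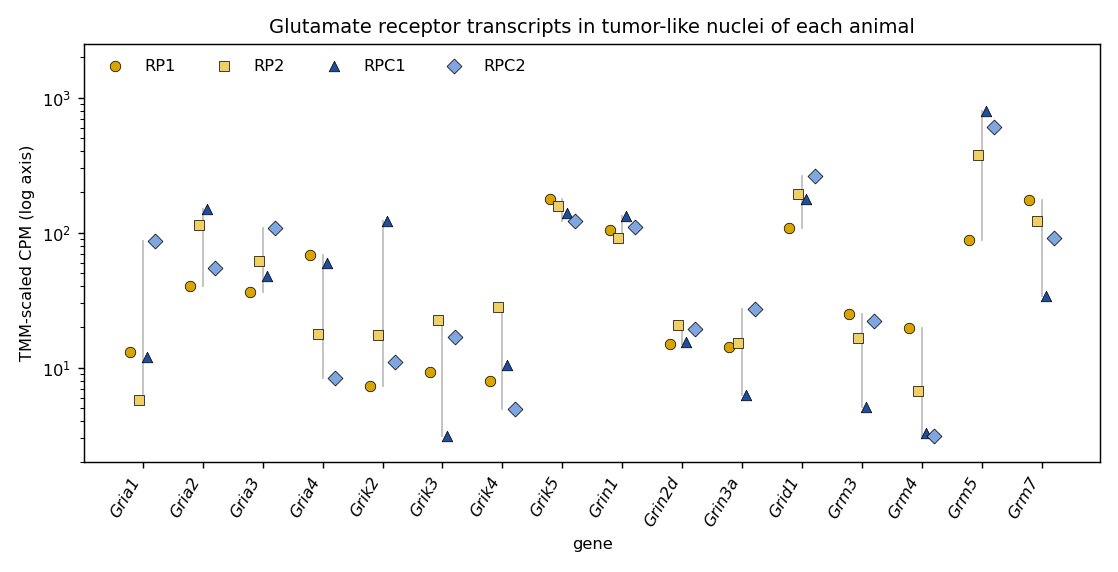
TMM-scaled CPM (log axis) of the 16 members that reached 10 CPM, with 1 point per animal and a grey line from the lowest to the highest animal. Grik2 runs from 7.34 in RP1 to 122 in RPC1, whereas Grin1 stays between 91.0 and 134.

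RPC was set against RP to see which of these genes go with the loss of Casp8. The quasi-likelihood test of edgeR called none of the 28 members that passed its filter on low counts at a Benjamini-Hochberg adjusted p under 0.05, and called 0% of the 20069 genes tested. At an unadjusted p under 0.05 it marked 1 of the 28, Grm4, against 15.2% of all genes (7.69% lower in RPC), and DESeq2 called 1 member, again Grm4, against 3.78% of the 17301 genes for which it gave an adjusted p (1.75% lower in RPC). In RPC, 12 of the 28 were higher (49.3% of all genes) and 16 lower, with a median log2 difference of -0.09 beside -0.01 over all genes tested. No overlap between RP and RPC animals was found for 11 members, 4 higher and 7 lower in RPC, beside 50.4% of all genes tested (24.9% higher, 25.5% lower). Grm6, Slc1a6 and Slc17a6 were not tested, with 0 to 16 transcripts per animal.

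**Figure D2:**
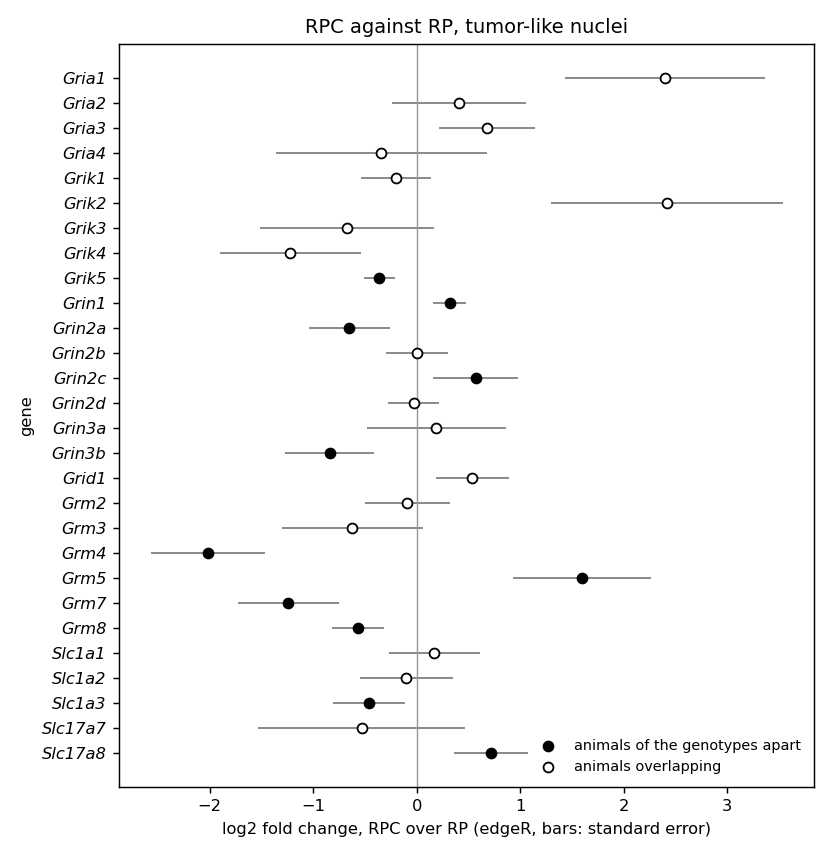
log2 fold change of RPC over RP in tumor-like nuclei for the 28 members tested, as edgeR estimates with bars of 1 standard error; filled points mark members whose RP and RPC animals did not overlap. Grik2 at 2.42 and Gria1 at 2.40 stand farthest to the right with wide bars, and Grm4 at -2.02 farthest to the left.

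Gria1 was the AMPA subunit that separated a single animal. It had 13 and 5.73 CPM in the RP animals against 12.0 and 86.9 in the RPC animals. RPC2 was thus the high animal, and RPC1 lay between both RP animals. The log2 difference of 2.40 ± 0.97 did not pass (edgeR adjusted p = 0.332), and leaving out RPC2 brought it to the lowest of its values, 0.38.

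Gria2, whose edited subunit keeps AMPA channels closed to calcium, had 40.4 and 113 CPM in RP against 149.6 and 54.4 in RPC. One animal of each genotype was high and the other low, so the groups overlapped (log2 difference 0.41 ± 0.65, edgeR adjusted p = 0.781). Gria3 was at 36.3 and 61.7 CPM in RP and at 47.9 and 109 in RPC, highest in RPC2 (0.68 ± 0.46, edgeR adjusted p = 0.498). Gria4 followed yet another order, with 68.5 CPM in RP1 and 59.8 in RPC1 but 17.8 in RP2 and 8.31 in RPC2. The AMPA subunits therefore did not share a high animal: the highest was RPC2 for Gria1 and Gria3, RPC1 for Gria2 and RP1 for Gria4.

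Grik5, a kainate subunit that forms channels only together with Grik1, Grik2 or Grik3, had the highest mean of the kainate genes on both length scales given further on. The levels were 179 and 158 CPM in RP against 141 and 121 in RPC. Both RPC animals lay below both RP animals, by a small margin (log2 difference -0.36 ± 0.15, edgeR adjusted p = 0.345).

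Grik2 reached 122 CPM in RPC1 and 7.34, 17.5 and 11.0 in RP1, RP2 and RPC2. The difference of 2.42 ± 1.12 (edgeR adjusted p = 0.373) rested on RPC1, since it was -0.17 without that animal. Grik3 had 9.30 and 22.4 CPM in RP against 3.14 and 16.8 in RPC (-0.67 ± 0.84, edgeR adjusted p = 0.719). Grik4 had 7.91 and 28.0 CPM against 10.5 and 4.90 (-1.22 ± 0.68, edgeR adjusted p = 0.435), and RP2 was the highest animal for both. Grik1 stayed between 1.39 and 1.92 CPM.

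Among the NMDA subunits, Grin1, which every NMDA receptor needs, had the highest level per length of gene and of exon. It had 105 and 91.0 CPM in RP against 134 and 111 in RPC. Both RPC animals lay above both RP animals, again by a small margin (0.32 ± 0.16, edgeR adjusted p = 0.402). Of the glutamate-binding Grin2 subunits, Grin2d, known as the subunit of slowly closing NMDA channels in the immature brain, was the one that exceeded 10 CPM, with 15.0 and 20.6 CPM in RP, 15.6 and 19.3 in RPC and overlapping groups (-0.03 ± 0.25, edgeR adjusted p = 0.968).

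Grin2a, Grin2b and Grin2c stayed between 0.813 and 3.73 CPM. Grin3a, a glycine-binding subunit that lowers the calcium flow of NMDA channels, had 14.2 and 15.2 CPM in RP1 and RP2, but 6.22 in RPC1 and 27.4 in RPC2, so that the RPC animals enclosed the RP animals. Its relative Grin3b was at most 0.444 CPM. The delta receptor Grid1, which binds cerebellins at synapses and is not opened by glutamate, had 108 and 195 CPM in RP against 177 and 265 in RPC (0.54 ± 0.35, edgeR adjusted p = 0.478), with overlapping groups.

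Grm5 had the highest level of all members per kb of exon. It had 87.9 and 377 CPM in RP against 803 and 608 in RPC. Both RPC animals lay above both RP animals, and the RP animals differed from each other more than the RPC animals did. The log2 difference of 1.60 ± 0.67 did not pass (edgeR adjusted p = 0.340, DESeq2 adjusted p = 0.105), and it ranged from 0.90 without RP1 to 3.01 without RP2. The study named Grm5 from these same samples, so its direction here is not independent evidence.

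The log2 differences of the other metabotropic genes tested lay between -2.02 and -0.09, and none of them passed the edgeR test. Grm4, a presynaptic receptor in many brain circuits, had 19.6 and 6.66 CPM in RP against 3.30 and 3.14 in RPC. Both RPC animals were low, and RP1 stood well above RP2. The log2 difference was -2.02 ± 0.55, with an edgeR adjusted p of 0.279 and a DESeq2 adjusted p of 0.0124, and over the alternatives the adjusted p ran from 0.0124 to 0.623. Without RP1 the difference was -1.05. Grm7, another presynaptic receptor with low affinity for glutamate, had 175 and 122 CPM in RP against 33.8 and 92.0 in RPC, with both RP animals above both RPC animals (-1.24 ± 0.49, edgeR adjusted p = 0.330, DESeq2 adjusted p = 0.156; -2.12 to -0.68 when an animal was left out).

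Grm8 was low and even, with 8.17 and 9.06 CPM in RP against 5.32 and 6.26 in RPC (-0.57 ± 0.25, edgeR adjusted p = 0.354). Grm3, which is found on both neurons and glia, overlapped, with 24.9 and 16.7 CPM in RP1 and RP2, 5.15 in RPC1 and 22.0 in RPC2. Grm2 stayed between 1.15 and 1.88 CPM, and Grm6, the receptor of retinal bipolar cells, had 5 transcripts in all.

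The transporters were near the floor of the tumor-like nuclei. The plasma membrane carriers Slc1a1, Slc1a2 and Slc1a3 had at most 2.07 CPM in any animal, and the vesicular carrier Slc17a8 had 1.13 and 1.44 CPM in RP against 1.82 and 2.44 in RPC (0.72 ± 0.36, edgeR adjusted p = 0.401). Slc17a6 and Slc17a7, the carriers that mark most glutamatergic neurons of the brain, did not exceed 0.527 CPM in any animal.

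Levels of different genes can be compared only per length, and the order depended on the length used, because nuclear RNA holds introns. Per 100 kb of gene, the mean over the 4 animals was 393 CPM for Grin1, 236 for Grik5, 85.1 for Grm5 and 73.4 for Gria2. Per kb of exon, Grm5 led with 43.7 CPM, before Grid1 with 29.8, Grm7 with 18.0, Grik5 with 16.1 and Grin1 with 9.93. Grm5 spans 551 kb on chromosome 7 (87233376 to 87784594, plus strand) and Grin1 only 28.0 kb on chromosome 2 (25181186 to 25209226, minus strand). Of the 31 genes, 29 overlap another annotated gene, 19 of them on the same strand, so part of their counts can belong to a neighbor.

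The spread between sublibraries of an animal was small beside the distance between animals for the members with the highest peaks. Across the 7 sublibraries, without TMM scaling, Grm5 ran from 73.8 to 109 CPM in RP1 and from 351 to 399 in RP2. In RPC1 it ran from 813 to 855 CPM and in RPC2 from 593 to 634. Grik2 ran from 90.6 to 150.1 CPM in RPC1 and no higher than 21.5 in any other animal, and Gria1 from 78.6 to 95.3 in RPC2 and no higher than 18.0 elsewhere. These sublibraries share their nuclei suspension, so they show technical spread alone, and not that between wells of the first barcoding round. Between such wells, Grik5 ran from 142 to 194 CPM in RP1 and from 141 to 170.0 in RP2. In RPC1 it ran from 129 to 156 CPM and in RPC2 from 119 to 125. Grin1 ran from 88.8 to 109, 75.3 to 103, 134 to 142 and 103 to 121 CPM in the same order. For both genes, wells of RP and RPC animals thus overlapped.

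Inside the tumors, several members were concentrated in part of the nuclei. Each of the 11 tumor-like clusters came mainly from 1 animal (76.9% to 99.9% of its nuclei), so the values are given for the nuclei of that animal, as CPM without TMM scaling and with no test. Grik2 and Gria4 in RPC1 came almost entirely from a cluster of 587 RPC1 nuclei. It held 11.9% of the tumor-like transcripts of RPC1 but 93.5% of those of Grik2 and 90.2% of those of Gria4. In this cluster Grik2 had 990.3 CPM and Gria4 469, against 9.20 and 6.84 in the other tumor-like nuclei of RPC1, and 92.2% and 82.1% of its nuclei held a transcript of the gene. These shares are without thinning. A median RPC1 nucleus held 4854 transcripts in this cluster, beside 2962 and 5897 in the other clusters that came mainly from RPC1.

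The same cluster held 84.3% of the Grm7 transcripts of RPC1, 82.6% of those of Grin3a, 64.7% of those of Grik4 and 59.4% of those of Grm3. Gria2 was at 298 CPM there against 135 in the rest. Not all members were high in it: Grm5 had 492 CPM in the cluster against 873 outside, and Grin1 103 against 143. With all nuclei of this cluster left out, Grik2 was at 9.20 CPM in RPC1 and its log2 difference between the genotypes turned to -0.43. Gria4 was then at 6.84 CPM in RPC1, and its log2 difference went from -0.34 to -2.56. Grik4 was at 4.33 CPM, and its difference went from -1.22 to -2.00.

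The cluster was led by neuronal genes besides these receptors, with Nrxn3 at 3406 CPM against 52.1, Erbb4 at 410.3 against 6.39 and Adarb2 at 840.1 against 4.74 in the other tumor-like nuclei of RPC1. Its neuroendocrine markers were near those of the rest, with Ddc at 985 against 965 CPM and Chga at 161 against 193, and the proliferation gene Mki67 at 1141 against 976. Of the neuron markers, Dcx was at 43.7 against 1.18 CPM and Stmn2 at 13.4 against 0.558. It was given no cell type name and was kept among the tumor-like nuclei, and how far another cell type had a part in it was not tested.

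In RPC2, Gria1 was highest in the cluster that is itself led by Gria1, with 137 CPM in its 3706 RPC2 nuclei and 57.9% of the Gria1 transcripts of the animal. A further cluster of RPC2, with 2218 nuclei, had 68.7 CPM, but the remaining one, with 1999 nuclei, had 11.8 CPM, close to the levels in RP1 and RPC1. In the latter Grm3 was at 60.2 CPM against 17.9 in the other tumor-like nuclei of RPC2, and Grm5 at 182 against 659.8.

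Grm7 split both RP tumors. In RP1 it was at 288 CPM in a cluster of 2111 nuclei, which held 82.8% of its transcripts, and at 21.4 and 19.4 CPM in the clusters of 2609 and 760 nuclei. In RP2 it was at 183 CPM in a cluster of 2425 nuclei and at 48.9 in one of 4273. The clusters rich in Grm7 were also those rich in Gria3, Grik3 and Grm3 within RP1 and within RP2: Gria3 had 50.6 against 15.1 and 11.8 CPM in RP1, and 87.8 against 28.6 in RP2. A median nucleus of these clusters held 3392 transcripts in RP1, beside 1891 and 3254 in the others, and 3135 in RP2, beside 2025. Grik5 varied little across the 11 clusters, from 116 to 184 CPM, and so did Grin1, from 83.7 to 155.

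**Figure D3:**
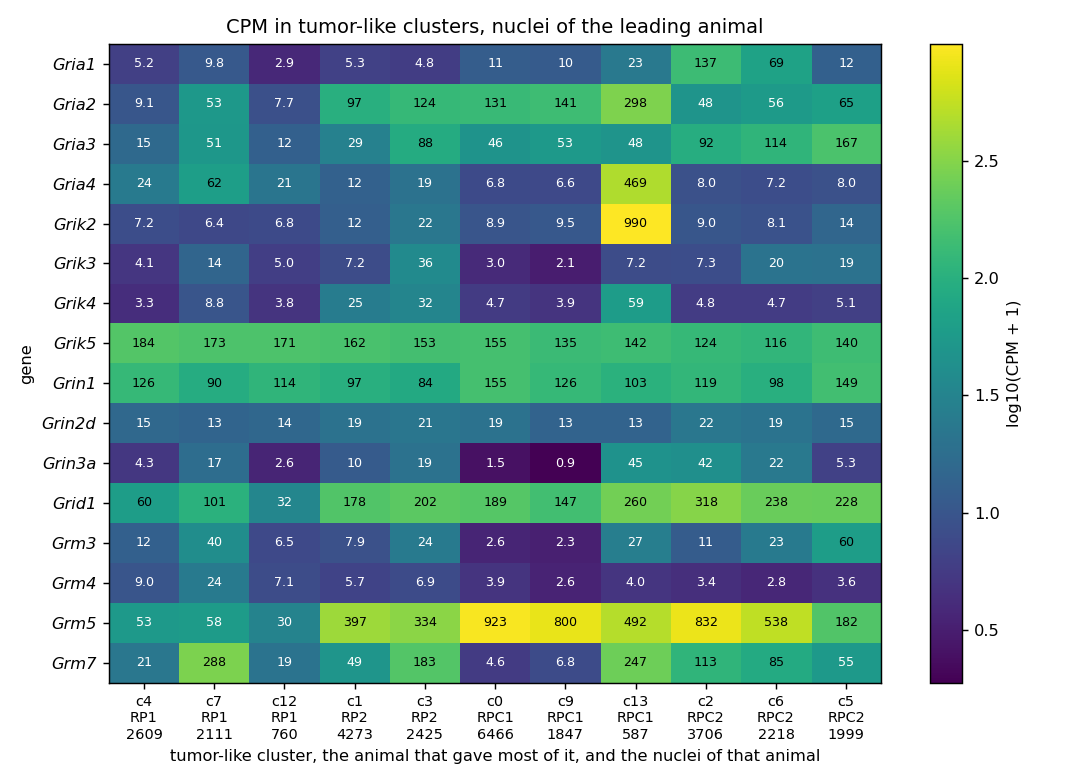
CPM of the 16 members over 10 CPM (rows) in each tumor-like cluster (columns, named with the animal that gave most of it and the number of its nuclei), with the color on a log10(CPM + 1) scale. Grik2 and Gria4 are high in the cluster of 587 RPC1 nuclei, Gria1 in 2 clusters of RPC2 and Grm7 in 1 cluster of each RP animal and in the cluster of 587 nuclei.

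Shares of nuclei were compared after each nucleus had been thinned to 1000 transcripts, which left out 719 to 753 shallower tumor-like nuclei in the RP animals and 135 to 409 in the RPC animals. A Grm5 transcript was then found in 6.64% and 27.0% of the tumor-like nuclei of the RP animals and in 48.8% and 35.7% of those of the RPC animals. Exact binomial 95% intervals, which cover counting error only, were 6.04% to 7.29% and 25.9% to 28.1% for RP and 47.8% to 49.8% and 34.7% to 36.8% for RPC. Without thinning these shares were 15.6%, 48.1%, 76.2% and 61.0% in the same order. The macrophage-like nuclei were taken as a background on the assumption that they lack the gene, which was not tested. Their thinned shares were 2.06%, 10.6%, 19.7% and 11.0% in the same order. The median depths were 2774, 2632, 4318 and 2722 transcripts, beside 2596, 2507, 3382 and 2977 in the tumor-like nuclei. The tumor-like share lay above that background in every animal, and the background moved with the tumor level. In RP1 the background rests on 2 of 97 nuclei, and its exact interval of 0.251% to 7.25% overlapped the tumor-like one. The intervals of both classes were apart in RP2, RPC1 and RPC2.

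Grik2 behaved otherwise: its thinned shares in the tumor-like nuclei, 0.713% and 1.74% in RP and 4.89% and 1.13% in RPC, lay below those of 4.12%, 7.58%, 8.28% and 3.39% in the macrophage-like nuclei. The exact intervals of both classes overlapped in RPC1 (4.45% to 5.35% and 4.48% to 13.7%) and in RPC2 (0.916% to 1.39% and 0.931% to 8.45%), and not in the RP animals. The macrophage-like nuclei therefore cannot serve as a background for Grik2. Without one, the share of tumor-like nuclei with Grik2 outside the cluster of 587 nuclei is read neither as expression nor as its absence. On sums, Grik2 had 45.2, 71.0, 101 and 47.3 CPM in the 622 macrophage-like nuclei, above the tumor-like level in all animals but RPC1.

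The nuclei of other classes made it possible to place the members that the tumor-like nuclei lacked. These nuclei carried tumor RNA, since the median neuroendocrine marker in a class reached 16.9% to 85.2% of its tumor-like level. In a class below the tumor-like level, a member's own transcripts and carried-over ones therefore cannot be told apart. With 4 animals, an exact sign-flip test within animals cannot go below p = 0.125, and the comparisons are given by animal. Values are CPM without TMM scaling, with the RP animals first and then the RPC animals.

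Slc1a1, a neuronal and epithelial carrier that also takes up cysteine, was at 284, 84.9, 68.6 and 99.9 CPM in club-like nuclei. It was at 174, 67.2, 132 and 75.9 CPM in alveolar type 1-like and at 92.6, 65.5, 72.8 and 90.0 in alveolar type 2-like nuclei. The RP1 values rest on 13 transcripts in club-like, 22 in alveolar type 1-like and 5 in alveolar type 2-like nuclei. In the 81 ciliated-like nuclei Slc1a1 was lower, at 28.9, 11.0, 10.8 and 18.4 CPM, which rest on 16 transcripts. All 4 epithelial classes lay above the tumor-like level of 0.513 to 0.908 CPM in every animal.

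Slc1a3, a carrier best known from astrocytes, was at 148, 149.7, 76.6 and 66.0 CPM in alveolar type 2-like nuclei. In the 128 fibroblast-like nuclei it was at 39.8, 86.2, 215 and 153 CPM, and in macrophage-like nuclei at 23.8, 27.2, 27.1 and 89.0. It was also at 39.5, 48.9, 101 and 27.7 CPM in alveolar type 1-like nuclei, and the class of smooth muscle or pericyte-like nuclei had 39.8, 21.8, 8.27 and 15.8 CPM. The tumor-like nuclei had 1.25 to 2.00 CPM, below all of these. Slc1a3 was at 2.73 CPM over the club-like nuclei of all animals, so the carriers divided the epithelial classes differently.

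Gria3 was at 504, 355, 714 and 316 CPM in fibroblast-like nuclei against 35.1, 61.2, 49.4 and 110.2 CPM in tumor-like nuclei, and 78.1% of the fibroblast-like nuclei held a transcript of it. Fibroblast-like nuclei were the higher class in 4 of 4 animals, and their median neuroendocrine marker was at 41.4% to 69.1% of its tumor-like level. Mesothelial-like nuclei, 53 in all, were also higher in 4 of 4 animals, with 38.2, 139, 164 and 215 CPM. RP1 gave only 8 of them, with 52297 transcripts of all genes. Its 38.2 CPM, close to the 35.1 of the tumor-like nuclei, therefore rests on very few Gria3 transcripts. Grin2a, nearly absent from the tumor-like nuclei (1.46 to 3.13 CPM), was at 45.4, 16.8, 129.9 and 19.8 CPM in the 310 smooth muscle or pericyte-like nuclei. It was also higher there than in the tumor-like nuclei of each animal, although the values differed several-fold among animals. Endothelial-like nuclei lay above the tumor-like level too, at 9.26, 26.9, 6.84 and 3.07 CPM, which rest on 11 transcripts.

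Both stromal classes depended on the clustering. At a resolution of 0.8, 308 of the 310 smooth muscle or pericyte-like nuclei and 74 of the 128 fibroblast-like nuclei fell into a cluster of 385 nuclei with fibroblast and pericyte markers that could not be named. In the 54 nuclei still named fibroblast-like, a comparison added after the data had been seen, Gria3 was at 979.7, 1299, 1259 and 921 CPM, and Slc1a3 at 0, 255, 329 and 261 CPM. RP1 gave only 2 of these nuclei, so its values rest on 10 transcripts of Gria3 and 0 of Slc1a3.

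**Figure D4:**
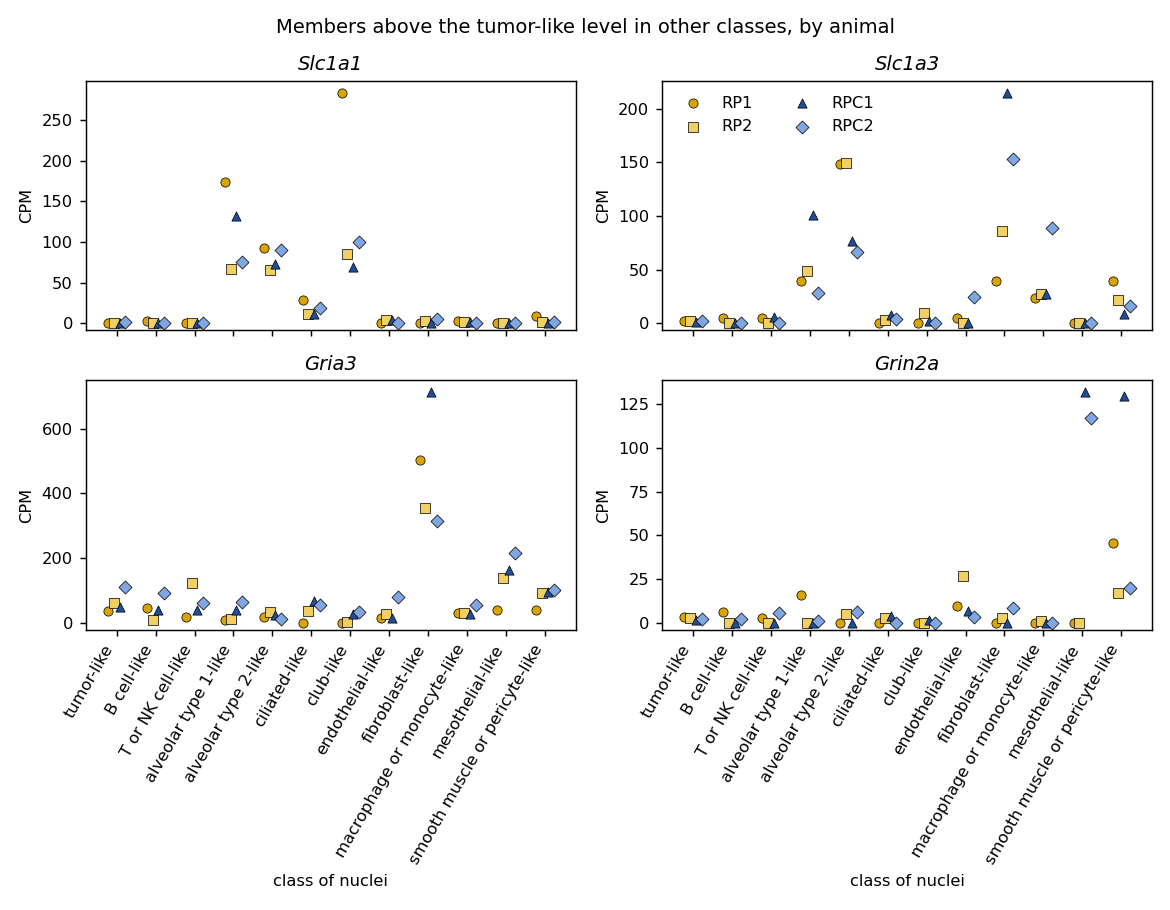
CPM of Slc1a1, Slc1a3, Gria3 and Grin2a (linear axes) in each class of nuclei, with 1 point per animal. Slc1a1 is high in the alveolar and club-like classes, Slc1a3 in alveolar and fibroblast-like nuclei and Gria3 in fibroblast-like nuclei; Grin2a points at 132 and 117 CPM in mesothelial-like nuclei of RPC1 and RPC2 rest on 17 and 6 transcripts.

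The wider glutamatergic machinery in the tumor-like nuclei was read from 4 lists with 101 genes, of which 98 were tested. edgeR called 0 of the 98, with 14 at an unadjusted p under 0.05 against 15.2% of all genes tested, and DESeq2 called 3 against 3.78% of all genes with an adjusted p. Animals of the genotypes did not overlap for 47 genes (48.0%), 20 higher and 27 lower in RPC, against 50.4% of all genes tested. By each of these counts the 98 genes lay near or below the share over all genes, but the lists differed. The share without overlap was 25.0% for auxiliary subunits, 48.6% for scaffolds and adhesion partners and 44.8% for signaling genes. For glutamate synthesis, breakdown and other carriers it was 72.2% (13 of 18 genes), above the share over all genes. The median log2 difference was -0.34 for the 16 auxiliary subunits of AMPA and kainate receptors, -0.23 for the 35 postsynaptic scaffolds and adhesion partners, 0.07 for the 29 signaling genes downstream of metabotropic receptors and -0.28 for the 18 genes of glutamate synthesis, breakdown and other carriers.

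The 3 genes that DESeq2 called all belong to the signaling list, with 29 genes tested. Their number is no more than the share over all genes gives for the 98 genes together, but not for this list alone. Prkcb, a protein kinase C, had 34.5 and 50.4 CPM in RP against 112 and 125 in RPC (log2 difference 1.48 ± 0.22, edgeR adjusted p = 0.262, DESeq2 adjusted p = 0.000122). Adcy2, an adenylyl cyclase, had 227 and 424 CPM in RP against 758 and 779.8 in RPC (1.24 ± 0.32, edgeR adjusted p = 0.276, DESeq2 adjusted p = 0.0225). Ncdn, which encodes neurochondrin, a partner of Grm5, had 24.0 and 22.0 CPM in RP against 7.30 and 10.1 in RPC (-1.41 ± 0.24, edgeR adjusted p = 0.262, DESeq2 adjusted p = 0.000594). For each of them both RPC animals lay on the same side of both RP animals.

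Of the scaffolds and adhesion genes with large differences, the scaffold gene Dlg2 had a log2 difference of -1.14, the adhesion protein Nlgn2 of -1.10 and the neuronal pentraxin Nptx2, which gathers AMPA receptors, of -1.37. Nlgn2 had 98.1 and 64.3 CPM in RP against 30.8 and 45.1 in RPC, and Nptx2 15.3 and 15.2 against 3.21 and 8.61. Among the carriers, the neutral amino acid transporter Slc1a4 had 20.6 and 30.6 CPM in RP against 12.4 and 13.7 in RPC (-0.97 ± 0.25, edgeR adjusted p = 0.276), and the mitochondrial glutamate carrier Slc25a22 16.9 and 9.72 against 6.44 and 6.31 (-1.06 ± 0.33, edgeR adjusted p = 0.288). None of these 5 passed either tool.

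Copy number was not measured, but genes beside a member on the chromosome were read from the same test. Within 1 Mb of Grm5, 4 tested genes had a median log2 difference of 0.88 between RPC and RP, the highest among the 16 members over 10 CPM, for which such medians ran from -0.58 to 0.88. From RP1 to RPC1, the lowest and highest animals for Grm5, the log2 ratio was 3.18 for Grm5 and a median of 0.79 for these neighbors. Grm5 overlaps 5 annotated genes on its own strand and 2 on the other. How far shared reads had a part in these medians was not tested. The single neighbor of Grik2 stood at 0.05 and the 17 of Gria1 at -0.15.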

How the data were processed

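The authors ran the Parse pipeline on GRCm39 with Ensembl genes, and the well of the first barcoding round told the animals apart. The deposited matrices hold counts of transcripts per nucleus and gene, not normalized, 1 matrix per animal over 7 sublibraries, and their sums equalled the transcript numbers of the deposited table of nuclei. This table has 12 columns, 8 of which went unused.

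The limits of the study were applied to nuclei: at least 300 counts, at most 10% mitochondrial and at most 12000 genes. Clusters came from 2000 variable genes without the 31 members, the wider lists, Rn18s-rs5 and mitochondrial genes, 20 principal components and a graph of 20 neighbors (scikit-learn 1.9.0, leidenalg 0.10.2, resolution 0.4, seed 1), and the non-tumor ones were clustered again at a resolution of 1. With 15 marker lists, a class name required a score of 1 or more (median log2 ratio, offset 5 CPM) and 3 markers in 5% of its nuclei. A tumor-like cluster was allowed no such score above 0.5. This limit was not set for the neuron and Schwann cell lists, and the highest neuron score of a tumor-like cluster was 0.21. A further 2097 nuclei stayed unnamed, nearly all of them in a shallow cluster rich in Rn18s-rs5. The names are reconstructions and may differ from those of the study. No doublet caller was run. Sub-clusters over 3 times as deep as their animals (club-like, alveolar type 2-like, macrophage-like and endothelial-like), which may hold doublets, were left out of the class levels after the data had been seen.

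Per animal, the tumor-like nuclei were summed and these counts tested with edgeR 4.0.16 in R 4.3.3 (quasi-likelihood, TMM, filterByExpr, legacy form, two-sided, no covariate), with Benjamini-Hochberg adjustment over all 20069 genes. DESeq2 1.42.0, the tool of the study, was an alternative. The standard error was calculated back from the F statistic. The fit was tested on simulated counts with known changes. Gene lengths and positions came from GENCODE release M39. Members with 10 CPM in an animal are given by animal, and of the wider lists the 8 with the largest log2 difference among those without overlap whose mean log2 CPM reached 3. The members and lists were chosen with earlier results of these data known.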

Additional observations from a re-analysis of the deposited data

How the results depend on the processing

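edgeR called 0 genes, 0 members and 0 genes of the wider lists in the analysis as reported. The fits without an animal set 1 animal against 2, so that their spread comes from the other genotype alone, and their range of 0 to 0 calls says nothing about stability. Without the filter on low counts it called 9 of 36572 genes and no member, and DESeq2 called 654 genes, 1 member (Grm4, -1.98, adjusted p = 0.0124) and 3 genes of the wider lists. The other alternatives called none: DESeq2 size factors, the replicate block, all kept nuclei, a resolution of 0.8, leaving out nuclei above 4 times the median, and 2 chosen after the data had been seen (without the neuronal-gene cluster, and the non-legacy form of edgeR).

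Leaving out an animal reversed the log2 difference of 3 members (RP1), 4 (RP2), 7 (RPC1) or 6 (RPC2). The ranges were -0.49 to 1.34 for Gria2, -0.02 to 1.16 for Gria3, -2.37 to 0.94 for Gria4, -0.17 to 3.31 for Grik2, -2.32 to 0.10 for Grik3, -0.15 to 0.17 for Grin2b, -0.24 to 0.22 for Grin2d, -1.23 to 0.90 for Grin3a, -0.40 to 0.31 for Grm2, -1.99 to 0.09 for Grm3, -0.15 to 0.59 for Slc1a1, -0.68 to 0.33 for Slc1a2 and -2.81 to 0.36 for Slc17a7. Without the neuronal-gene cluster Grik2 was at -0.43, Grin2b at -0.25 and Grin3a at -0.04, and Gria4 at -2.56 and Grik4 at -2.00 moved by over 1.5 times with the same sign. Grin2b was at -0.17 over all kept nuclei, -0.03 at a resolution of 0.8 and -0.13 without nuclei above 4 times the median, where Grm2 was at 0.00. Grin2d was at 0.03 without the filter and 0.01 with DESeq2, and Slc1a2 at 0.24 over all kept nuclei. The cause was not tested. Size factors and the non-legacy form reversed none of the 28.

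The numbers of the animals do not pair them, as they are different mice (correlation of the deviations of same-numbered animals -0.0411). With the replicate block, 1 member reversed (Grin3a, -0.17), and no call changed. Thinning moved the difference in share of nuclei by over 1 SD for 11 of 16 members. With 2 animals per genotype, members under 10 CPM rest on few transcripts, and differences between animals and between genotypes are hard to separate.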
